A study of Mus musculus with 4 samples.

Results

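The genes described here are 10 components and targets of the Notch pathway. They are the ligands Dll1 and Dll3, the receptors Notch1, Notch2 and Notch3, the transcriptional effectors Hes1, Hes5, Hes6 and Hey1, and the feedback inhibitor Nrarp. They were chosen by name, 10 of the 21937 features in each count matrix, and all 10 had counts in all 4 libraries. The libraries were made by droplet single-cell RNA sequencing of 3' transcript ends from dissected mouse telencephalic midline, the region around the cortical hem. At each age there was 1 library of the genotype Lmx1aCre::Ai9::b-cat gof, called gof here, and 1 of Lmx1aCre::Ai9, the control. The ages were E11.5 and E14.5. All embryos were male, both hemispheres were taken, and the series text gives 5 embryos for E11.5 and 3 for E14.5, pooled so that cells cannot be assigned to an embryo.

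Both genotypes carry the Cre and the Ai9 reporter, so tdTomato marks cells with an Lmx1a-Cre history in gof and control alike and does not report the b-cat gof allele itself. The comparisons ask how Notch pathway genes differ between gof and control in cells with detected tdTomato, in cells without it and in each cell type. Each group was a single library, so no test between groups was possible, and the pool of embryos and the genotype cannot be told apart. Values are UMI counts summed over cells and scaled to CPM, a gene's UMIs relative to all UMIs of the same cells, with exact 95% Poisson intervals in parentheses. Shares of cells have exact Clopper-Pearson intervals, and both kinds of interval cover counting error only. A gene is called higher or lower below when it has at least 10 CPM in either library, differs by at least 1.5-fold after adding 1 CPM, and has separate intervals.

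In Notch signalling a Delta-type ligand on the surface of a cell binds a Notch receptor on its neighbour. The cut-off intracellular part of the receptor then joins the DNA-binding protein Rbpj and switches on repressors of the Hes and Hey families. In the embryonic cortex Hes1 and Hes5 hold progenitors in an undifferentiated state by repressing proneural genes, while cells that start to become neurons express Dll ligands and so signal to the cells beside them.

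Libraries held 6263 to 8677 barcodes and between 59594082 UMIs (E11.5 gof) and 113821989 UMIs (E14.5 control). After filtering, 6991 gof and 6503 control cells were kept at E11.5 with medians of 5643 and 8172 UMIs, and 5258 gof and 6577 control cells at E14.5 with medians of 14013 and 12850 UMIs. Pairs of libraries shared 7 to 13 barcodes. Cells were assigned to types by gates on marker counts after thinning every cell to 3000 UMIs, and these gates use none of the 10 genes as markers; cell types below are named by their gate. Hem-gated cells numbered 714 in gof and 1103 in control at E11.5, and 123 in gof and 351 in control at E14.5, so the dissected region held cells with hem markers in all 4 libraries. Across all genes the log2 ratio of gof over control had a median of -0.12 in the E11.5 pair and -0.09 in the E14.5 pair. In sums over a library, fewer cells of a type and less RNA per cell cannot be told apart.

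Hes5 (ENSMUSG00000048001) lies on the forward strand of chromosome 4, at chr4:154960923-154962371 of GRCm38 in the GENCODE M21 annotation. Nrarp (ENSMUSG00000078202) lies on the forward strand at chr2:25180758-25183339, Hey1 (ENSMUSG00000040289) on the reverse strand at chr3:8663359-8667256, and Notch2 (ENSMUSG00000027878) on the forward strand at chr3:98013527-98150361. All 10 genes are protein-coding. The 250 bases before the starts of Hes5 and Nrarp are printed because gof cells of E11.5 had less of both and because they are direct targets of the Notch and Rbpj complex in mouse. They are chr4:154960673-154960922 for Hes5 and chr2:25180508-25180757 for Nrarp, both on the forward strand, 5′ to 3′, from RefSeq on GRCm38.p6. Capitals mark TGGGAA or its reverse complement TTCCCA, the core of the sequence that Rbpj binds.
Hes5: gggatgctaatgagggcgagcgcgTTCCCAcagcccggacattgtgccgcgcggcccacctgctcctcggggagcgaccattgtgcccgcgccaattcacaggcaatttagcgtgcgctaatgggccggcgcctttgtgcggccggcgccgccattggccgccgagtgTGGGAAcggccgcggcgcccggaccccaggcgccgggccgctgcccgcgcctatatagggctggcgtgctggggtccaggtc
Nrarp: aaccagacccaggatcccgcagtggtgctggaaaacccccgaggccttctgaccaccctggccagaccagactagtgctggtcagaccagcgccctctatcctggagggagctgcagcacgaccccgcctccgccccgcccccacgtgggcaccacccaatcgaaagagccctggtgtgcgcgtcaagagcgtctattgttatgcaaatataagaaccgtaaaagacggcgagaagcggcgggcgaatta

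The Hes5 sequence holds 2 matches on opposite strands, whose first bases lie 226 and 82 bases before the start, and the Nrarp sequence holds 0. Sequences were found for 8 of the 10 genes, with 10 start sites in all, and Hes5 was the only gene among them with a match. Of all 32851 RefSeq windows of this length, 21.6% held at least 1 match and 2.77% at least 2. A match describes the letters of this window and is not evidence of binding.

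In the whole E11.5 libraries 3 of the 10 genes were called lower in gof and none higher, namely Hes5, Hey1 and Nrarp. Of all genes tested, 8.39% were called in either direction. The 10 genes had a median log2 ratio of -0.22. The cell mix differed between these libraries, with mesenchymal cells at 16.3% of gated gof and 8.23% of gated control cells. Its part in the calls was not tested.

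The ligands differed little at this age. Dll1, the main Delta ligand of cortical neurogenesis, was at 28.8 CPM (27.3 to 30.4) in gof and 34.8 CPM (33.4 to 36.3) in control. Dll3, a Delta relative that stays inside the cell and dampens signalling, was at 12.7 CPM in gof, against 10.2 CPM in control. Neither difference reached 1.5-fold, and the ligands pointed in opposite directions.

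None of the receptors was called in the whole library. Notch1, the receptor best known for holding cortical progenitors, was at 27.9 CPM (26.4 to 29.4) in gof and 39.6 CPM (38.2 to 41.2) in control, a log2 ratio of -0.49 that fell short of 1.5-fold. Notch2, another receptor of the family, was at 154 CPM in gof, against 139.8 CPM in control, and Notch3, which is also strong in vessel walls, at 23.8 CPM in gof, against 26.8 CPM in control. Notch2 was thus the most abundant of the 3 receptors by UMI count in both libraries of this age; counts of transcript ends need no correction for gene length.

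Among the effectors, Hes5 stood apart. Hes5, a repressor and direct target of Notch that maintains neural progenitors, was at 47.5 CPM (45.6 to 49.5) in gof and 340.3 CPM (336 to 345) in control, from 2325 and 23132 UMIs. It had the second lowest log2 ratio, -2.81, of the 8402 genes tested. Hes1, its relative, which has inputs other than Notch as well, was at 554 CPM (547 to 560) in gof and 501 CPM (496 to 507) in control. The pair of repressors therefore did not move together, with Hes5 lower and Hes1 within 1.5-fold.

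Hey1, a repressor of a related family, was at 27.3 CPM (25.8 to 28.8) in gof and 54.6 CPM (52.8 to 56.4) in control, a log2 ratio of -0.98. Nrarp, an ankyrin-repeat protein induced by Notch that limits Notch output, was at 27.6 CPM (26.1 to 29.1) in gof and 47.6 CPM (45.9 to 49.2) in control, a log2 ratio of -0.76. Both were called lower, by less than Hes5. Hes6, which counters Hes1 and promotes neurogenesis, was at 85.3 CPM in gof, against 78.5 CPM in control and was not called.

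At equal depth, with each cell thinned to 3000 UMIs, Hes5 was seen in 729 of 6342 gof cells and 3063 of 6401 control cells of E11.5, the control share being 47.9%. Hes1 was seen in 63.6% of gof and 64.4% of control cells, and Notch2 in 29.3% of gof and 27.1% of control cells. Dll3, at 4.05% of gof and 4.11% of control cells, was seen in the fewest cells in both. The shares thus show the same contrast between Hes5 and Hes1 as the summed counts.

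**Figure D1:**
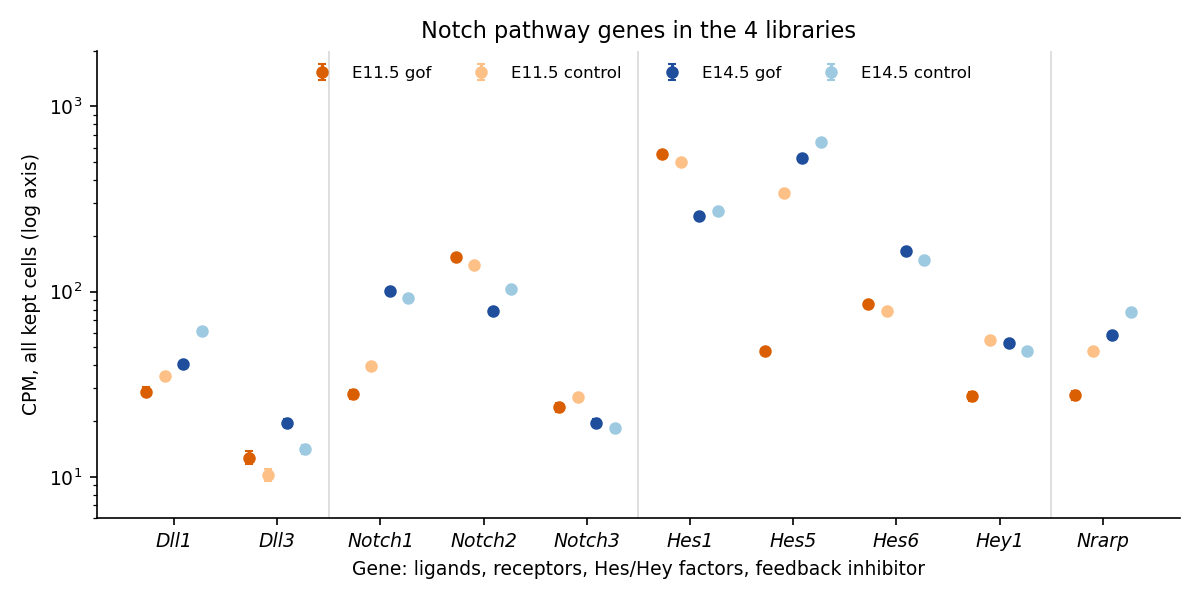
CPM of the 10 genes in all kept cells of each library (log axis; bars, exact 95% Poisson intervals, mostly smaller than the points), grouped as ligands, receptors, Hes and Hey factors and feedback inhibitor. The Hes5 point of the E11.5 gof library, at 47.5 CPM, lies far below the other 3 libraries, which are at 340.3 to 647 CPM.

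Splitting cells by the reporter showed that the lower Hes5 at E11.5 was not limited to cells with detected tdTomato. Cells with at least 2 tdTomato UMIs were called positive and cells with 0 negative. A count of 0 does not place a cell outside the Lmx1a lineage, since the reporter can be missed. Negative cells of E11.5 had median depths of 5521 UMIs in gof and 7833.5 UMIs in control. Of the hem-gated cells of E11.5, 86 of 714 in gof and 289 of 1103 in control were positive. Positive cells numbered 293 in gof, 4.19% (3.73 to 4.69) of kept cells, and 554 in control, 8.52% (7.85 to 9.22). Cells of non-neural gates, which should largely lack the reporter, were positive at 0.826% in gof and 0.910% in control, with median depths of 6858 and 8192 UMIs.

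In tdTomato-positive cells of E11.5, Hes5 was at 73.0 CPM (64.4 to 82.5) in gof and 339 CPM (327 to 351) in control, a log2 ratio of -2.20. In tdTomato-negative cells it was at 44.2 CPM (42.2 to 46.3) in gof and 346 CPM (341 to 352) in control, a log2 ratio of -2.94. The difference was thus called in both, and was no smaller in cells without a tdTomato UMI. Median depths of the positive cells were 9741 UMIs in gof and 13454 UMIs in control.

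Of the 9 genes measured in tdTomato-positive cells of E11.5, 4 were called lower and 1 higher, where 10.3% of all genes were called. Hey1 was at 32.5 CPM in gof, against 68.2 CPM in control, Nrarp at 30.2 and 56.2 CPM, and Notch1 at 24.1 and 37.7 CPM, in the same order. Hes6 was the gene called higher, at 119 CPM (108 to 131) in gof and 74.1 CPM (68.6 to 79.8) in control. Dll1 was at 36.4 CPM in gof, against 36.9 CPM in control, and Dll3 was under 10 CPM in both.

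In tdTomato-negative cells of E11.5, 3 of 10 genes were called lower and 0 higher, against 8.29% of all genes. They were again Hes5, Hey1 (26.5 CPM in gof, 50.4 CPM in control) and Nrarp (27.0 CPM in gof, 46.6 CPM in control). Apical progenitors made up 43.8% of negative gof and 62.0% of negative control cells, and 57.0% and 68.4% of positive ones. The part of this cell mix in the differences was not tested, and Nrarp was not called among negative apical progenitors alone. Notch2 was at 140.4 CPM in gof, against 111 CPM in control, which was not called.

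In the whole E14.5 libraries 0 of the 10 genes was called, where 11.2% of all genes were. Hes5 was at 525 CPM (519.8 to 529.7) in gof and 647 CPM (642 to 652) in control, a log2 ratio of -0.30. Dll1 came closest to the limit, at 40.7 CPM (39.3 to 42.1) in gof and 61.1 CPM (59.5 to 62.6) in control, a log2 ratio of -0.57. Nrarp was at 58.7 CPM in gof, against 77.3 CPM in control.

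The other genes lay nearer to each other in the whole E14.5 libraries. Notch1 was at 101 CPM in gof, against 92.5 CPM in control, Hes1 at 255 and 271 CPM, Hes6 at 165 and 147 CPM, and Hey1 at 52.9 and 48.0 CPM, in the same order. Notch2 was at 78.6 CPM in gof, against 104 CPM in control, Notch3 at 19.5 and 18.2 CPM, and Dll3 at 19.5 and 14.1 CPM. Hey1 and Nrarp, lower in gof at E11.5, thus had log2 ratios of 0.14 and -0.39 at E14.5.

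In tdTomato-positive cells, by contrast, 4 of 10 genes were called at E14.5, where 23.6% of all genes were, so the share is not far from that of all genes. Notch2 was at 80.6 CPM (76.7 to 84.7) in gof and 166 CPM (161 to 172) in control, Hes5 at 376 CPM (368 to 385) in gof and 611 CPM (601 to 622) in control, and Nrarp at 39.5 CPM in gof, against 65.3 CPM in control. These 3 were lower, and Hes6 was higher, at 245 CPM (239 to 253) in gof and 150.4 CPM (145 to 156) in control. Positive cells numbered 1027 in gof (19.5% of kept cells, median 15805 UMIs) and 1104 in control (16.8%, median 13554.5 UMIs), and in non-neural gates 8.09% of gof and 4.63% of control cells were positive.

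In tdTomato-negative cells of E14.5 only Dll1 was called, lower in gof at 44.2 CPM (42.3 to 46.1) than in control at 67.2 CPM (65.2 to 69.2), where 9.46% of all genes were called. Its 1.51-fold difference sits at the limit, and it was not called after 5 of the changes in processing tried. Hes5 was at 583 CPM in gof, against 679 CPM in control, and Notch2 at 75.4 CPM in gof, against 87.1 CPM in control, neither of them called.

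**Figure D2:**
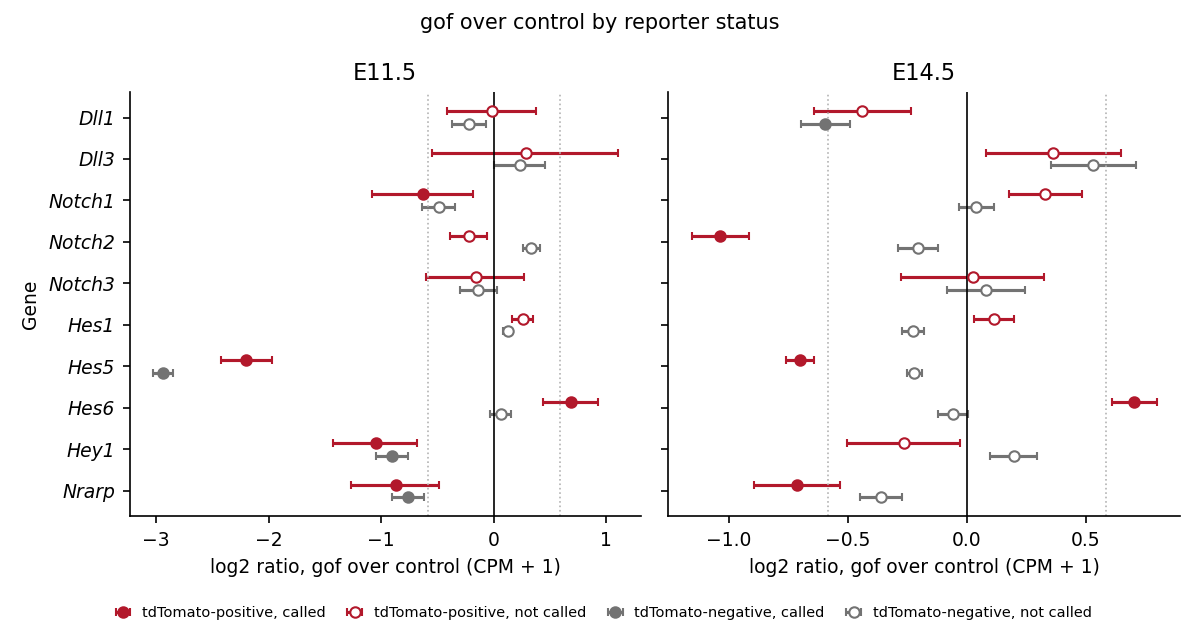
Log2 ratio of gof over control (CPM + 1) for each gene in tdTomato-positive (red) and tdTomato-negative (grey) cells at E11.5 and E14.5; filled points were called, bars are exact 95% intervals and dotted lines mark 1.5-fold. At E11.5 Hes5 is at -2.20 and -2.94, and at E14.5 Notch2 (-1.03), Hes5 (-0.70) and Nrarp (-0.71) are called lower and Hes6 (0.70) higher in positive cells.

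Within apical progenitors, the dividing cells that line the ventricle, Hes5 and Hey1 were lower in E11.5 gof cells and the remaining genes were not called. The gate held 3121 gof and 4047 control cells at E11.5, and 2 of 9 measured genes were called, where 6.95% of all genes were. Hes5 was at 65.0 CPM (61.9 to 68.3) in gof and 408 CPM (402 to 414) in control, and Hey1 at 31.5 CPM in gof, against 59.9 CPM in control. Hes1 was at 597 CPM in gof, against 552 CPM in control. Notch2 was at 182 CPM in gof, against 136 CPM in control, Notch1 at 30.4 and 44.5 CPM, Dll1 at 17.9 and 27.3 CPM and Nrarp at 40.1 and 55.7 CPM. All were within 1.5-fold after adding 1 CPM, with Dll1 just under that limit.

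Among tdTomato-positive apical progenitors of E11.5, 167 gof and 379 control cells, 4 of 9 genes were called lower, against 9.75% of all genes. Hes5 was at 79.8 CPM in gof, against 357 CPM in control, Hey1 at 38.4 and 66.1 CPM, Notch1 at 20.5 and 37.2 CPM, and Nrarp at 34.7 and 55.6 CPM. Hes6, at 91.1 CPM in gof, against 60.6 CPM in control, was not called here. Among tdTomato-negative apical progenitors 2 of 9 were called, against 7.36% of all genes, with Hes5 at 62.5 CPM in gof, against 426 CPM in control and Hey1 at 29.8 CPM in gof, against 58.4 CPM in control.

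At E14.5 none of the 9 genes measured in apical progenitors was called, where 12.1% of all genes were, over 2197 gof and 2701 control cells. Hes5 was at 728 CPM (720 to 737) in gof and 861 CPM (853 to 870) in control, Notch1 at 155 CPM in gof, against 136 CPM in control, and Nrarp at 84.4 CPM in gof, against 98.5 CPM in control. Split by the reporter, Hes5 was called lower in positive apical progenitors and was not called in negative ones. In tdTomato-positive apical progenitors Hes5 was at 593 CPM (576 to 611) in gof and 1199 CPM (1172 to 1226) in control, a log2 ratio of -1.01, and in tdTomato-negative ones at 801 CPM in gof, against 804 CPM in control.

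Notch2 followed the same split at E14.5. It was at 129 CPM (121 to 137) in gof and 238 CPM (226 to 250.5) in control among positive apical progenitors, and at 127 CPM in gof, against 129.9 CPM in control among negative ones. Nrarp was the third gene called there, at 68.0 CPM in gof, against 103 CPM in control, a 1.501-fold difference that sits at the limit. These 3 of 9 genes stand against 22.3% of all genes called in positive apical progenitors (354 gof and 349 control cells), and in negative ones 0 of 9 stand against 11.7%.

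The make-up of the positive apical progenitors differed between the genotypes. Cells passing the hem gate made up 29.9% of them in gof and 76.2% in control at E14.5, and 51.5% in gof and 76.3% in control at E11.5. Hes5 was lower in gof within the hem-gated positive cells of E14.5 as well, at 565 CPM (536 to 595) in 106 gof cells and 1320.2 CPM (1287 to 1354) in 266 control cells. In the pallial-gated positive cells it was at 734 CPM in gof, against 915 CPM in control. Notch2 was at 184 CPM in gof, against 283 CPM in control in the hem-gated positive cells, and at 104 CPM in gof, against 119.7 CPM in control in the pallial-gated ones.

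A further 76 positive gof apical progenitors of E14.5, 21.5% of the total, passed none of the hem, pallial and diencephalic gates. They had Hes5 at 256 CPM (229 to 285), Hes6 at 304 CPM (275 to 336), Hey1 at 10.2 CPM and Nrarp at 30.5 CPM. These levels of Hes5, Hey1 and Nrarp were the lowest, and that of Hes6 the highest, among the positive hem-gated, pallial-gated and other apical progenitors of the E14.5 gof library. Too few positive control cells fell in this class to give a level.

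Notch2 was higher in tdTomato-positive than in tdTomato-negative apical progenitors of both control libraries. Apical progenitors of the E11.5 control library had Notch2 at 233 CPM in tdTomato-positive and 112 CPM in tdTomato-negative cells, and those of the E14.5 control library at 238 and 129.9 CPM in the same order. In the gof libraries the positive and negative cells had 237 and 165 CPM at E11.5 and 129 and 127 CPM at E14.5. Notch2 was the only gene of 9 called between positive and negative cells in either control library, where 10.0% of all genes at E11.5 and 17.1% at E14.5 were called. Of the 349 positive apical progenitors of the E14.5 control library, 266 passed the hem gate. Notch2 in that library was at 282 CPM in all hem-gated and 129 CPM in all pallial-gated cells. The part of the gates in the difference between positive and negative cells was not tested.

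In the gof libraries other genes differed between positive and negative apical progenitors. At E11.5 Dll1 was higher in positive cells (28.4 CPM, against 16.5 CPM in negative cells) and Notch1 lower (20.5 CPM against 32.3 CPM), where 12.4% of all genes were called. At E14.5 Hes6 was higher in positive cells, at 147 CPM against 75.4 CPM in negative cells, and Hey1 lower, at 39.3 CPM against 72.9 CPM, where 14.2% of all genes were called. Hes5 was called in neither, with 593 CPM in positive and 801 CPM in negative gof cells of E14.5, against 1199 and 804 CPM in control cells. Whether these differences between positive and negative cells themselves differ between the genotypes was not tested.

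**Figure D3:**
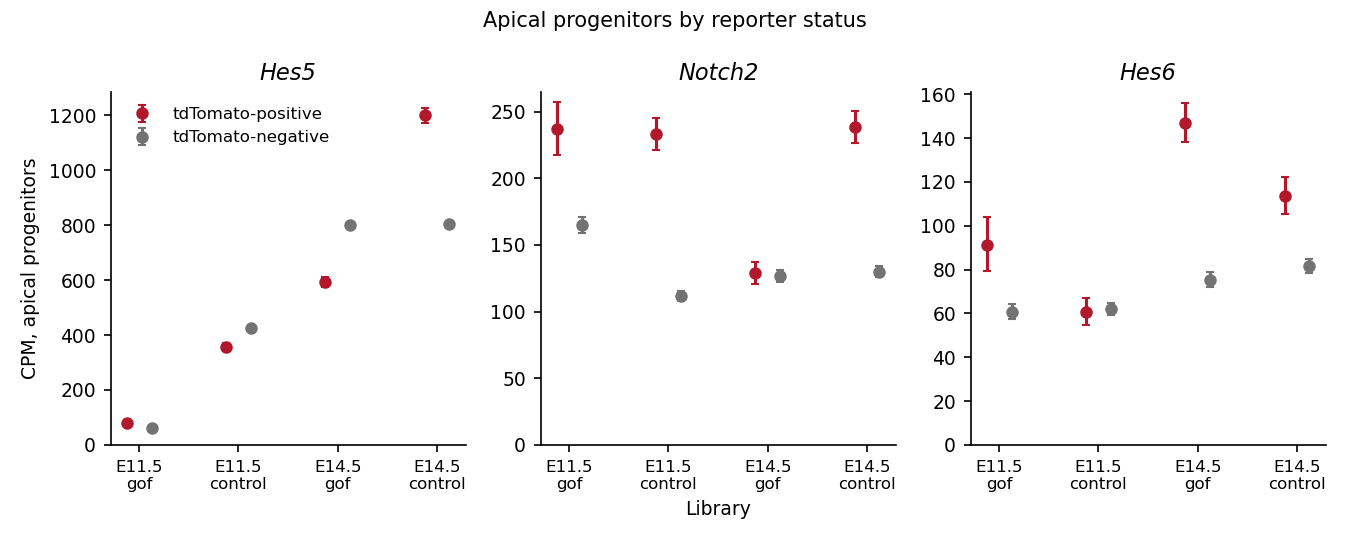
CPM of Hes5, Notch2 and Hes6 in tdTomato-positive (red) and tdTomato-negative (grey) apical progenitors of each library, with exact 95% Poisson intervals on linear axes from 0. At E14.5 Hes5 in negative cells is equal in both libraries (801 and 804 CPM), while positive cells lie below that level in gof (593 CPM) and above it in control (1199 CPM).

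Set against Hes1 in the same cells, Hes5 made up a smaller part of the pair in E11.5 gof progenitors. The ratio of Hes5 to Hes1 UMIs in apical progenitors was 0.109 (0.103 to 0.115) in gof and 0.738 (0.724 to 0.752) in control at E11.5, 6.78-fold lower in gof. At E14.5 it was 1.71 (1.67 to 1.74) in gof and 1.94 (1.91 to 1.97) in control. In tdTomato-positive apical progenitors the ratio was 0.127 in gof and 0.620 in control at E11.5, and 1.54 in gof and 2.76 in control at E14.5. In negative ones at E14.5 it was 1.85 in gof and 1.78 in control, the opposite direction.

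The ratio differed between types of progenitor. In hem-gated cells it was 0.123 in gof and 0.708 in control at E11.5, and 1.58 in gof and 3.18 in control at E14.5. In pallial-gated cells it was 0.111 in gof and 0.796 in control at E11.5, and 1.75 in gof and 1.79 in control at E14.5. Intermediate progenitors, which divide away from the ventricle to give neurons, had the highest ratios in each library, 0.182 in gof and 1.68 in control at E11.5, and 5.31 in gof and 4.18 in control at E14.5.

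Counting cells gave the same picture at equal depth. After thinning to 3000 UMIs, 3.91% of E11.5 gof apical progenitors had Hes5 without Hes1, 60.0% Hes1 without Hes5, 12.6% both and 23.4% neither. In E11.5 control cells these shares were 14.4%, 28.7%, 44.3% and 12.6%. At E14.5 they were 19.9%, 19.9%, 47.9% and 12.2% in gof cells, and 20.7%, 14.3%, 52.9% and 12.1% in control cells. The cells with Hes1 alone were thus the largest class in E11.5 gof, and the cells with both the largest in the other 3 libraries.

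Hes5 UMIs were found in 16.5% (15.2 to 17.9) of E11.5 gof and 58.7% (57.2 to 60.3) of E11.5 control apical progenitors at this depth, and in 31.0% and 80.2% without thinning. Hes1 UMIs were found in 72.7% and 73.0% in the same order. Mesenchymal cells, which should lack Hes5, had a Hes5 UMI in 1.35% of gof and 4.93% of control cells of E11.5, at median depths of 5990 and 7065 UMIs before thinning. The shares in apical progenitors, at median depths of 6324 UMIs in gof and 8792 UMIs in control, lay above that background in both libraries.

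**Figure D4:**
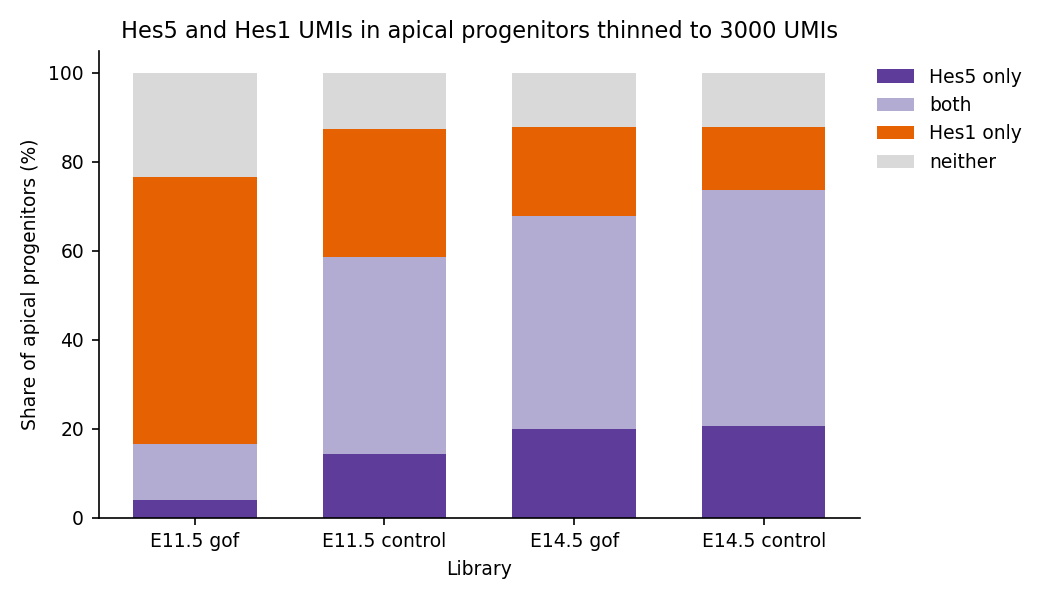
Share of apical progenitors with a Hes5 UMI only, both, a Hes1 UMI only or neither, after thinning every cell to 3000 UMIs, in each library. Cells with Hes1 only make up 60.0% in E11.5 gof and 28.7% in E11.5 control, and at E14.5 19.9% in gof and 14.3% in control.

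Hes5 was called lower in gof in each of the 9 gates compared at E11.5, with log2 ratios of -3.21 to -1.53. In hem-gated progenitors it was at 80.7 CPM (73.7 to 88.2) in gof and 380.0 CPM (369 to 391) in control, over 714 and 1103 cells. In pallial-gated progenitors it was at 60.1 CPM in gof, against 423 CPM in control, in diencephalic-gated ones at 58.9 and 553 CPM, and in other apical progenitors at 60.0 and 389 CPM. The ratio was lowest in the diencephalic gate, whose tissue lies beside the telencephalon, and which held 3 tdTomato-positive cells in each library.

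Hes5 was lower in neurons and non-neural cells as well. Intermediate progenitors had Hes5 at 85.6 CPM in gof, against 620.3 CPM in control, and neurons outside the Cajal-Retzius gate 32.1 CPM in gof, against 199 CPM in control. Cajal-Retzius neurons, which pattern the cortical surface, had 5.07 CPM (1.05 to 14.8) from 3 UMIs in gof and 43.5 CPM (30.5 to 60.2) from 36 UMIs in control, a log2 ratio of -2.87 (-4.90 to -0.99). Mesenchymal cells had 5.40 CPM in gof, against 26.5 CPM in control, and erythroid cells 3.50 CPM in gof, against 11.97 CPM in control. Summed apical progenitor markers in the erythroid gate were at 285 CPM in gof, against 303 CPM in control, and the part of free RNA in these Hes5 levels was not tested.

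Of the 3078 genes measured in all 9 gates, Hes5 and Tpr, which encodes a nuclear pore protein, were called lower in every gate (0.0650% of those genes), and 10 genes were higher in every gate (0.325%). A gene was measured when either library reached 10 CPM. In the Cajal-Retzius, mesenchymal and erythroid gates Hes5 reached it in control only, so these shares depend on that filter. Tpr was at 125 CPM in gof, against 206 CPM in control at E11.5 and at 264 CPM in gof, against 243 CPM in control at E14.5, and in the whole libraries it was called at E11.5 and not at E14.5. Rpl29, a ribosomal protein gene among the 10, was at 1042 CPM in gof, against 122 CPM in control at E11.5, and at 868 CPM in gof, against 60.8 CPM in control at E14.5. These genes were named after their values were seen. The summed level of the 9 erythroid markers in the non-erythroid gates was 602 to 961 CPM in gof and 313 to 635 CPM in control at this age, and its part in the Hes5 difference was not tested.

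**Figure D5:**
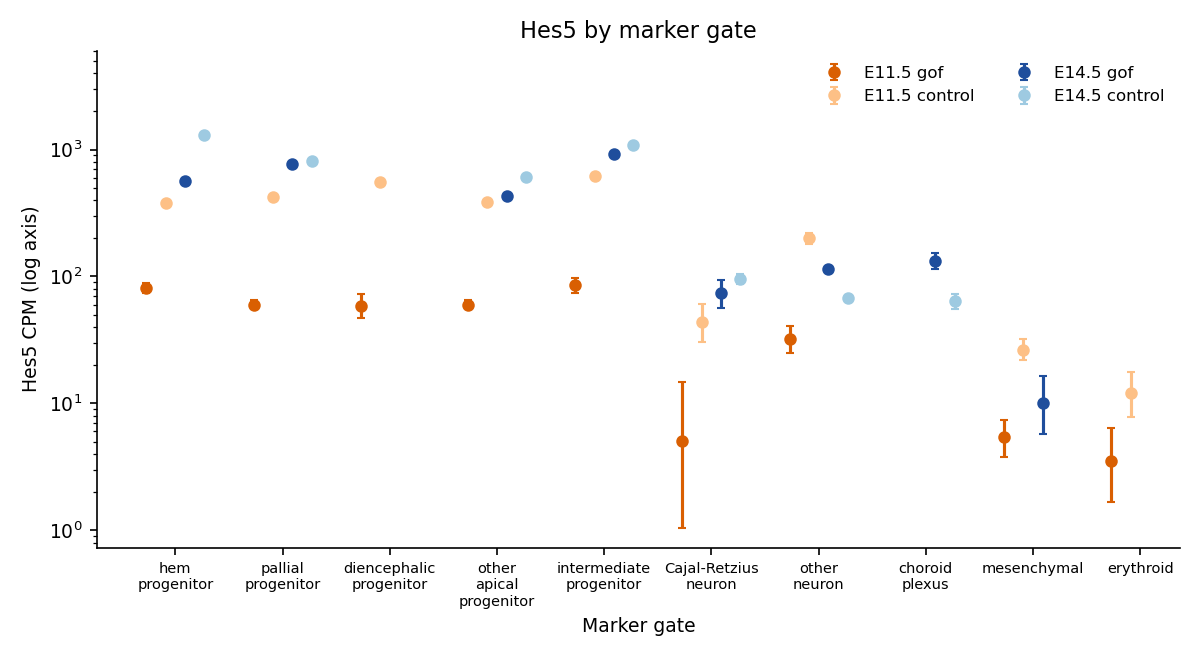
Hes5 CPM by marker gate and library (log axis; bars, exact 95% Poisson intervals; only populations of at least 50 cells). At E11.5 gof lies below control in all 9 gates, while at E14.5 the hem gate shows 569 CPM in gof, against 1309.9 CPM in control and the pallial gate 772 and 812 CPM.

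The other genes were called in fewer gates of E11.5. In the hem gate Notch1 (20.3 CPM in gof, 33.4 CPM in control) and Hey1 (36.9 CPM in gof, 57.6 CPM in control) were lower beside Hes5, 3 of 9 genes, against 6.99% of all genes. In the pallial gate Notch1 (35.6 CPM in gof, 56.8 CPM in control), Dll1 (20.9 CPM in gof, 32.4 CPM in control) and Hey1 (43.5 CPM in gof, 85.5 CPM in control) were lower beside Hes5, 4 of 9, against 10.6%. In the diencephalic gate Nrarp (21.6 CPM in gof, 41.4 CPM in control) was lower beside Hes5, 2 of 9, against 7.31%, and in other apical progenitors Hes5 alone was called, 1 of 9, against 8.71%. Notch2, at 338 CPM in gof, against 238 CPM in control, was highest among the apical gates in the hem gate and was not called there.

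Intermediate progenitors of E11.5, 417 gof and 268 control cells, had the most calls, 5 of 10 genes against 10.8% of all genes. The markers of this gate include Gadd45g and Insm1, both called higher in the whole gof library of this age. The part of these markers in the differences was not tested. Hey1 was at 30.8 CPM in gof, against 89.8 CPM in control, Nrarp at 19.6 and 52.6 CPM and Dll3 at 44.0 and 74.8 CPM, all lower in gof beside Hes5. Notch2 was higher, at 70.0 CPM in gof, against 45.4 CPM in control. Dll1, which is strongest in this gate, was at 192 CPM (175 to 209.7) in gof and 239 CPM (218 to 261) in control, and was not called.

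In neurons outside the Cajal-Retzius gate, Hes5, Hes1 (53.2 CPM in gof, 90.8 CPM in control) and Hey1 (39.8 CPM in gof, 70.1 CPM in control) were lower, 3 of 9 genes, against 7.71% of all genes. In the Cajal-Retzius gate Hes5 alone was called, 1 of 9, against 3.58%. In the mesenchymal gate Hes5 was lower and Hes1 higher, at 829 CPM in gof, against 513 CPM in control, 2 of 7 genes against 7.02%, and in the erythroid gate Hes1 was higher too, at 32.2 CPM in gof, against 15.2 CPM in control, 2 of 2 measured genes against 7.98%. In the Cajal-Retzius, mesenchymal and erythroid gates Hes5 reached 10 CPM in control only, so there it could be called lower or not at all. The counts of these gates depend on that filter. Hes1 and Hes5 had log2 ratios of opposite sign in both non-neural gates.

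At E14.5 the calls by gate were spread over the pathway, and many lay in gates whose own markers differed between the libraries. In the hem gate, with 123 gof and 351 control cells, Hes5 was at 569 CPM (540 to 598) in gof and 1309.9 CPM (1279.7 to 1341) in control, Notch2 at 185 and 282 CPM, and Dll1 at 14.6 and 24.7 CPM. These 3 of 9 genes were lower, against 19.2% of all genes. The summed level of the 9 hem markers in this gate was 2898 CPM in gof, against 5887 CPM in control, and their part in the difference was not tested. In the pallial gate none of 9 genes was called, against 11.3%, with Hes5 at 772 CPM in gof, against 812 CPM in control.

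Other apical progenitors of E14.5 had 1 of 9 genes called, Hes6, at 152 CPM in gof, against 68.5 CPM in control, against 18.8% of all genes. Intermediate progenitors, 802 gof and 1413 control cells, had 5 of 10 called, against 18.2%. Of the markers of this gate, Gadd45g was called lower and Insm1 higher in the whole gof library of this age. Their part in the differences was not tested. Hes1 (173 CPM in gof, 262 CPM in control), Notch2 (37.7 CPM in gof, 72.6 CPM in control), Notch3 (8.39 CPM in gof, 14.1 CPM in control) and Nrarp (70.9 CPM in gof, 109.7 CPM in control) were lower. Dll3 was higher, at 42.4 CPM in gof, against 25.1 CPM in control, where at E11.5 it had been lower in this gate.

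In Cajal-Retzius neurons of E14.5, 60 gof and 370 control cells, Dll1 (21.0 CPM in gof, 47.3 CPM in control), Nrarp (5.82 CPM in gof, 28.7 CPM in control) and Notch1 (5.82 CPM in gof, 18.3 CPM in control) were lower, 3 of 9 genes, against 17.3% of all genes. The gof values rest on 18 UMIs of Dll1, 5 of Nrarp and 5 of Notch1, with intervals of 1.89 to 13.6 CPM for Nrarp and Notch1. The summed Cajal-Retzius markers of this gate were at 2642 CPM in gof, against 6215 CPM in control. In other neurons Hes5 (115 CPM in gof, 67.4 CPM in control), Hes6 (158 CPM in gof, 96.9 CPM in control), Hes1 and Notch1 were higher, 4 of 9 genes, against 12.4%, while the summed neuron markers were at 6560 CPM in gof, against 7873 CPM in control. After thinning, a Hes5 UMI was seen in 14.4% (12.7 to 16.2) of gof and 13.6% (11.9 to 15.4) of control cells, so the share of cells differed little. These shares were 33.1% and 24.0% for Hes6, 3.23% and 2.06% for Hes1, and 4.97% and 2.88% for Notch1.

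In the choroid plexus gate, 62 gof and 148 control cells of the epithelium that makes cerebrospinal fluid, Notch2 was lower, at 176 CPM (155 to 199.8) in gof and 451 CPM (429 to 475) in control. Hes6 (121 CPM in gof, 46.4 CPM in control), Hes5 (132 CPM in gof, 63.7 CPM in control) and Notch1 (43.7 CPM in gof, 20.7 CPM in control) were higher. These 4 of 7 genes stand against 29.7% of all genes. Choroid plexus markers in the gate summed to 2562 CPM in gof, against 8089.6 CPM in control, and apical progenitor markers to 1785 and 1161 CPM, and the part of these markers in the differences was not tested. The log2 ratio of Hes5 here, 1.04, was 1.97 with gates on all UMIs and 0.68 without doublet removal.

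Between the ages, apical progenitors of both genotypes had Hes5, Notch1 and Nrarp called higher at E14.5 than at E11.5, and Hes5 had the larger log2 ratio in gof. The median of all genes was 0.52 in gof and 0.59 in control on the log2 scale, so log2 ratios relative to that median are given too. In gof Hes5 was at 728 CPM at E14.5 and 65.0 CPM at E11.5, a log2 ratio of 3.46, or 2.95 above the median. In control it was at 861 CPM at E14.5 and 408 CPM at E11.5, a log2 ratio of 1.08, or 0.49 above the median. Whether the age difference itself differs between genotypes was not tested.

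Notch1 rose with age by this rule in both genotypes, at 155 CPM at E14.5 and 30.4 CPM at E11.5 in gof and 136 and 44.5 CPM in control. This was 1.80 above the median in gof and 1.001 above it in control. Nrarp was at 84.4 CPM at E14.5 and 40.1 CPM at E11.5 in gof, 0.54 above the median, and at 98.5 and 55.7 CPM in control, 0.22 above it. Hey1 was called in gof, at 66.8 CPM at E14.5 and 31.5 CPM at E11.5, 0.55 above the median, and was not called in control, at 59.4 and 59.9 CPM, a value of -0.60 relative to the median. Hes1 was at 427 CPM at E14.5 and 597 CPM at E11.5 in gof and at 444 and 552 CPM in control, and was not called. Relative to the median of all genes its log2 ratio was -1.001 in gof and -0.91 in control. Altogether 4 of 9 genes in gof and 3 of 9 in control were higher, where 54.0% and 57.5% of all genes were called.

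Of 41 other genes of the pathway, 25 were measured in the whole E11.5 libraries, and 2 were lower and 0 higher, with a median log2 ratio of -0.02. This is near the 8.39% of all genes called there, whose median was -0.12. They were Lfng, a fringe enzyme that modifies Notch, at 8.68 CPM in gof, against 15.5 CPM in control, and Maml2, a co-activator of the Notch and Rbpj complex, at 49.0 CPM in gof, against 83.3 CPM in control. In tdTomato-positive cells the same genes were the 2 lower of 27 measured, where 10.3% of all genes were called, with Lfng at 9.23 CPM in gof, against 20.9 CPM in control. Maml3, at 89.5 CPM in gof, against 135 CPM in control, and the protease Adam17, at 28.3 and 18.5 CPM in the same order, lay just under the 1.5-fold limit there. Adam10, a protease that cuts Notch after ligand binding, was at 102 CPM in gof, against 88.6 CPM in control of the whole library and was not called.

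At E14.5 2 of 28 measured pathway genes were lower and 0 higher in the whole library, where 11.2% of all genes were called, with a median of -0.10. They were Hey2, at 16.1 CPM in gof, against 39.9 CPM in control, and Bhlhe40, at 9.58 and 20.9 CPM in the same order. Both were also called lower in tdTomato-negative cells, with Hey2 at 16.0 CPM in gof, against 43.2 CPM in control. In tdTomato-positive cells 5 of 29 were lower and 3 higher, close to the 23.6% of all genes called there, with a median of -0.13, against -0.12 for all genes. Adam10 was at 196 CPM in gof, against 97.0 CPM in control there, and Mfng, a fringe enzyme, at 58.5 CPM in gof, against 30.1 CPM in control. Maml3, a co-activator like Maml2, was lower, at 242 CPM in gof, against 459 CPM in control, as was Dtx1, a ubiquitin ligase of the pathway, at 4.79 CPM in gof, against 10.7 CPM in control.

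Proneural genes, which Hes repressors hold down, and companion genes of neurogenesis such as Gadd45g and Insm1 showed no common direction. At E11.5 2 of 6 measured in the whole library were higher, where 8.39% of all genes were called. They were Gadd45g, induced in newly formed neuronal precursors, at 203 CPM in gof, against 103 CPM in control, and Insm1, a zinc-finger factor of intermediate progenitors, at 33.8 CPM in gof, against 20.5 CPM in control. In tdTomato-positive cells of E14.5 2 of 6 were higher and 2 lower, where 23.6% of all genes were called. Insm1 was among the higher genes, at 88.2 CPM in gof, against 34.4 CPM in control. Neurod1, which drives neuronal differentiation, was among the lower genes, at 78.1 CPM in gof, against 156 CPM in control. Gadd45g was lower in the whole E14.5 gof library, at 218 CPM in gof, against 464 CPM in control, the opposite of E11.5. Gadd45g and Insm1 are also among the markers of the intermediate progenitor gate.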

How the data were processed

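The authors deposited unnormalized UMI counts of genes in cell barcodes for 4 libraries. Cell Ranger 7.1.0 and the mm10 genome are named in the submitters' processing notes, and the sources used here give no annotation version. The ages follow the series text, since sample titles shorten them. Kept barcodes had 1000 or more genes and no more than 10% of UMIs from mitochondria. Doublets were removed as the highest Scrublet scores, 0.8% per 1000 deposited barcodes, since Scrublet's own threshold marked only 2 cells in each E11.5 library. Cells were thinned to 3000 UMIs (random seed 1) and assigned to 13 marker gates. The gate limits were set after the marker distributions were seen, without the values of the 10 genes. Counts were summed per library and population, and populations under 50 cells were not compared.

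The 10 genes and the gene lists were chosen with earlier results of these data known. All 10 are named. Of the 41 other pathway and 9 proneural genes, those with the 3 highest and 3 lowest log2 ratios in tdTomato-positive cells at each age are named, with any called in the whole library at both ages; 1 gene under this rule is not reported here. Hey2 and Bhlhe40 are named outside this rule, after their values were seen. No test between groups was run, since each group was 1 library, and intervals cover counting error only. The calling rule was tested on Poisson counts simulated from the E11.5 control means, with median-of-ratios scaling, whereas the calls reported here use CPM. The simulation held no variation between pools or libraries, so it does not cover that error. Alternatives were stricter filters, no doublet removal, other scaling, pseudocounts, thresholds, thinning and reporter limits. Python 3.11.15, numpy 2.4.6, scipy 1.17.1, pandas 2.3.3, scanpy 1.11.5 and matplotlib 3.10.9 were used.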

Additional observations from a re-analysis of the deposited data

Results flagged for a closer look

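Some genes were called in opposite directions in different gates of an age, or in the same gate at the 2 ages, and are listed for that. None of these differences between gates or ages was tested, and all values are log2 ratios of gof over control. In intermediate progenitors Dll3 was at -0.75 at E11.5 and 0.73 at E14.5, and Notch2 at 0.62 at E11.5 and -0.93 at E14.5. Gadd45g and Insm1, markers of this gate, themselves differed between the whole libraries at both ages. In neurons outside the Cajal-Retzius gate Hes5 was at -2.60 at E11.5 and 0.76 at E14.5, and Hes1 at -0.76 at E11.5 and 0.75 at E14.5.

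Hes1 was at 0.69 in mesenchymal and 1.04 in erythroid cells of E11.5, and at -0.60 in intermediate progenitors of E14.5. At E14.5 Hes5 was at -1.20 in the hem gate and at 1.04 in the choroid plexus gate. Notch1 at that age was at -1.50 in Cajal-Retzius neurons, at 1.04 in the choroid plexus gate and at 0.90 in other neurons. The Cajal-Retzius value rests on 5 Notch1 UMIs in 60 gof cells.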

How the results depend on the processing

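No paired analysis was possible because each group was 1 library. Hes5 was called lower at E11.5 under every alternative tried for the whole library, the tdTomato-positive cells and the tdTomato-negative cells. At a 2-fold limit the 10 genes gave 1 call in the whole library, 2 in positive and 1 in negative cells of E11.5, and at E14.5 1 in positive and 0 in negative cells. With positive cells taken at 1 or more tdTomato UMIs the calls were 3 at E11.5 and 1, Notch2, at E14.5. The share of all genes called was not computed at these limits, so these counts cannot be set against it. In negative cells of E14.5 the call of Dll1 was also lost, leaving 0, under median-of-ratios scaling, a pseudocount of 5 CPM, thinning and the apical gate alone. The log2 difference in the Hes5 to Hes1 ratio of E11.5 apical progenitors, -2.76, was -2.90 with strict filters, -1.82 from shares of cells and -2.28 in tdTomato-positive cells. At E14.5 it was -0.18, against -0.13 from shares and -0.84 in positive cells, and it turned to 0.052 in negative cells. Of 724 values for single genes 116 moved beyond their counting intervals, and no called gene changed direction. Part of the 724 could not move, since the other limits on low values and on fold change calls and not log2 ratios.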

Other observations

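Apical progenitors with a Dll1 UMI after thinning were 4.49% of gof and 6.84% of control cells at E11.5, and 4.42% of gof and 4.48% of control cells at E14.5. Hes6 was at 188 CPM in cells with Dll1 and 57.3 CPM in cells without in the E11.5 gof library, and at 147 and 57.1 CPM in the E11.5 control library. At E14.5 it was at 237 and 91.7 CPM in gof and at 140.5 and 84.0 CPM in control. Hes5 in cells with and without Dll1 was at 145 and 63.1 CPM in gof and 515 and 417 CPM in control at E11.5, and at 955 and 719 CPM in gof and 1041 and 863 CPM in control at E14.5. Hes1 in the same cells was at 564 and 603 CPM in gof and 527 and 559 CPM in control at E11.5, and at 439.9 and 432 CPM in gof and 446 and 443 CPM in control at E14.5. These are values with no test, since the cells of a library share their source.

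The genes whose levels most resembled these over 35 populations of gates and libraries, by Pearson's r on 7509 genes, were Fam110a for both Dll1 (0.933) and Hes6 (0.917), Rgs16 for Dll3 (0.933), Mybbp1a for Notch1 (0.931), Etfa for Notch2 (0.8996) and Hmgn3 for Notch3 (0.915). For the other genes they were Zfp36l1 for Hes1 (0.939), Cep57 for both Hes5 (0.898) and Nrarp (0.872), and Cdk4 for Hey1 (0.856). The populations share libraries, so r is a description only.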
